A study of Mus musculus with 9 samples.

Results

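The regions described here are 993 stretches of the mouse genome that were transcribed in liver and that lay outside every gene listed for the study. They came from a table of 10199 assembled loci that carried no gene name (identifiers beginning with MSTRG). A locus was kept if it lay on chromosomes 1 to 19, averaged at least 1 FPKM over the 9 libraries and overlapped no entry of the accompanying gene table on either strand. FPKM is the number of fragments scaled by feature length and library size. Of the 10199 loci, 5779 reached the mean of 1 FPKM and 5593 of these lay on chromosomes 1 to 19. A further 3878 loci on those chromosomes overlapped a listed gene in sense and 722 overlapped one only on the other strand, and both kinds were left aside.

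Libraries came from the livers of C57BL/6 mice aged 8 weeks, 3 per group. Mice of the IPO group underwent hepatic ischaemia-reperfusion with ischaemic postconditioning, in which short interruptions of the returning blood flow are applied at the start of reperfusion. IR mice underwent ischaemia-reperfusion alone, and sham mice the sham procedure. No transgene or mutation was named for any group, and the lengths of ischaemia and of reperfusion are unknown here. The comparison of IR with sham addressed what ischaemia-reperfusion does to the liver, and that of IPO with IR what postconditioning changes. Nothing in the labels says how the 3 libraries of a group relate to each other beyond being separate samples, so the p-values measure only how far these libraries differ from each other, a spread that may be technical.

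RNA-seq assembly joins aligned reads into transcripts whether or not a gene is known at that position. Loci found outside gene models can be long non-coding RNAs, transcribed pseudogenes, transcripts that run on past the end of a gene, antisense or divergent transcripts from promoters, copies of repeats or ribosomal RNA, and fragments of genes absent from the list. Stress is known to lengthen transcription past gene ends in mammalian cells, and liver is known for long non-coding RNAs that lie close to metabolic genes.

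The name "unannotated" held only in part. The gene table gives all its 11229 genes as protein-coding, so non-coding genes were outside it from the start. In the mouse annotation GENCODE M21 (GRCm38, which is mm10) 11212 of them were found, of which 11147 are protein-coding there. Of the 993 loci, 440 overlapped a GENCODE M21 gene on either strand and 553 did not. Of those 553, 189 overlapped a RefSeq gene, which left 364 loci in neither annotation. In sense, 123 loci covered a pseudogene exon, 101 an exon of the long non-coding class and 42 an exon of a protein-coding gene. A further 4 covered an exon of the TEC class, and 3 a small RNA. The long non-coding class took in every gene type outside the other classes named here, so immunoglobulin and T cell receptor constant genes would fall in it. Of the 993 loci, 4 lay on such constant genes. Of the 42, 35 lay on exons of genes in the gene table, beyond the ends listed for them, and 7 on genes outside that table. A further 55 lay in an intron on the same strand and 112 lay opposite a gene. The loci are therefore called intergenic below only with respect to the listed protein-coding genes.

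Sequences are shown for loci to which the results below return. The first 4 are promoters of long non-coding RNA genes whose RefSeq start lay within 250 bases of the start of an intergenic locus that was called in at least 1 comparison (RefSeq, GRCm38.p6, 250 bases before to 50 bases after the start, written along the gene's strand). Gm34654 (chr9:77851855-77852154, minus strand) is the start of MSTRG.24640, which was high in IR livers. Gm8883 (chr1:71887862-71888161, plus strand) is the start of MSTRG.505, which was low in IR livers. Snhg7 (chr2:26640195-26640494, minus strand) and Snhg17 (chr2:158361473-158361772, minus strand) are host genes of small nucleolar RNAs and are the starts of MSTRG.12216 and MSTRG.13620. Capitals mark the matches to 4 motifs, searched on both strands. The AP-1 motif was searched as TGANTCA. The core of the cAMP response element was searched as TGACGT. The E-box was searched as CACGTG, and the TATA box was searched as TATAAA.
Gm34654: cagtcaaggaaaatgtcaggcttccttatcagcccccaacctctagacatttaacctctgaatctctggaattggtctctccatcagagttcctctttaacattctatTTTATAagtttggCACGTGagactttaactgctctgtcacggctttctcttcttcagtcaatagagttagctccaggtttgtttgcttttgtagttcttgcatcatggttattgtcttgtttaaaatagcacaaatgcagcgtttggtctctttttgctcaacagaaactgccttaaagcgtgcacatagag
Gm8883: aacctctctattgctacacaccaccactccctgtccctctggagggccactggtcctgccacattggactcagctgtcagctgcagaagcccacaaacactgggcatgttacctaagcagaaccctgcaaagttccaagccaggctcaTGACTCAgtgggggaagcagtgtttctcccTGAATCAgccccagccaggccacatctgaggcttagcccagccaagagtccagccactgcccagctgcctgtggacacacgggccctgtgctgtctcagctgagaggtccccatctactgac
Snhg7: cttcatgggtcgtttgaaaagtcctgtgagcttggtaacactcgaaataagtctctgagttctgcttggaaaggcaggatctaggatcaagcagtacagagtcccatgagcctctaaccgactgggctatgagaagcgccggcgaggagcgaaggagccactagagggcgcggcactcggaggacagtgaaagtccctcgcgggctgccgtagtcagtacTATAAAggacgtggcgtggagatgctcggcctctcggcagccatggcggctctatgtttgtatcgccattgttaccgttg
Snhg17: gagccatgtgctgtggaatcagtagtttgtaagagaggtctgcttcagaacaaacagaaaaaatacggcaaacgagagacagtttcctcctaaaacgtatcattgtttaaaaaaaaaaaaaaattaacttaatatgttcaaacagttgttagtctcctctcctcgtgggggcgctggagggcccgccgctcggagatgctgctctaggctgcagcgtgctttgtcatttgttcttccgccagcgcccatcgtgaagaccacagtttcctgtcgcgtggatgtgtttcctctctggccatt
The Gm34654 window held 1 CACGTG and, on the other strand, 1 TATAAA. The Gm8883 window held 2 matches to TGANTCA, the Snhg7 window 1 TATAAA, and the Snhg17 window none of the 4. A RefSeq start within 250 bases was found for 67 of the 993 loci and for 2274 of the 5779 loci in all. TGANTCA was in 7.46% of the 67 windows, 5.01% of the 2274 and 7.81% of all 32851 RefSeq promoters. TGACGT was in 11.9%, 13.3% and 7.51%, CACGTG in 8.96%, 11.1% and 7.15%, and TATAAA in 14.9%, 7.43% and 13.6% of the same 3 sets. The motifs share no overlapping match in the windows shown.

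The other sequences come from transcripts. Gm15459, a processed pseudogene of Hspa8 covered by MSTRG.17059, and Scp2-ps2, a pseudogene of the sterol carrier gene Scp2 covered by MSTRG.25186, are given beside the matching 60 bases of the gene they copy (GENCODE M21 transcripts). Capitals mark the bases that differ within each pair.
Gm15459: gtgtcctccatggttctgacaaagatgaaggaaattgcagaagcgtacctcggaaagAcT
Hspa8: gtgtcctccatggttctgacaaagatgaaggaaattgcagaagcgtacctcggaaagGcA
Scp2-ps2: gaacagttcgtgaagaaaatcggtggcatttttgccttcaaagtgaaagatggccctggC
Scp2: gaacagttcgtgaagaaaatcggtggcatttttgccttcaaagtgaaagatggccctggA
Within these 60 bases Gm15459 and Hspa8 had 2 differences and Scp2-ps2 and Scp2 had 1. The stretches were chosen to match closely, so this likeness was set by the choice. Of the 31-base words of Gm15459, 91.9% are also in Hspa8, and of those of Scp2-ps2, 83.3% are in Scp2. A read of either copy could therefore be assigned to the other by the authors' counting. The last is the mature microRNA mmu-miR-101a-3p (RefSeq, GRCm38.p6, chr4:101346957-101346977, minus strand), whose hairpin lies inside MSTRG.16057, with its seed (bases 2 to 8) in capitals.
mmu-miR-101a-3p: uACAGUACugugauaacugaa
Of the 993 loci, 2 held a microRNA hairpin, and neither was called in any comparison.

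Most intergenic loci were short and weakly transcribed. Their span ran from 200 to 311616 bases with a median of 958, and 146 were under 300 bases. The median of their mean level was 1.93 FPKM, 207 reached 5 FPKM and 113 reached 10 FPKM, and the highest averaged 2744 FPKM. In every library 946 were above 0, and 47 were listed at 0 in at least 1. By strand, 481 lay on the plus and 512 on the minus strand, and each chromosome carried 31 to 89. The nearest listed gene lay a median of 23616 bases away (range 7 to 3739512). With respect to that gene, 396 loci lay downstream on the same strand, 206 upstream on the same strand, 224 pointed away from it (divergent) and 167 pointed towards it (convergent).

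The number of reads is not given by FPKM, but the products of FPKM and span of short loci (under 600 bases) fell on whole multiples of 1 step per library. Within 0.05 of a whole number lay 75.8% to 82.8% of these products, against 10.0% by chance. The steps give relative depths of 0.586 to 1 in IPO, 0.658 to 0.741 in IR and 0.645 to 0.859 in sham libraries, as a share of the deepest. The whole numbers correspond to covered bases and not to reads, so no count test was run and no counting interval is given. The 993 loci summed to 9210 to 9476 FPKM in IPO, 8194 to 8515 FPKM in IR and 7983 to 9050 FPKM in sham libraries. These sums include MSTRG.121, which covers copies of mitochondrial genes and is described below. Without it they were 5903 to 7118 FPKM in IPO, 5169 to 6797 FPKM in IR and 5157 to 6201 FPKM in sham, and all groups overlapped. All 7 hepatocyte markers were in the gene table and summed to 22570 to 24830 FPKM in IPO, 22750 to 29840 FPKM in IR and 17510 to 24660 FPKM in sham. For each other cell type, the markers in the table summed to more than 0 FPKM in every library. The 5 Kupffer cell markers summed to 84.2 to 100.8 FPKM in IPO, 78.3 to 312 FPKM in IR and 67.0 to 93.6 FPKM in sham, with none called. The 3 cholangiocyte markers found, of 4, summed to 3.38 to 5.43, 6.89 to 27.4 and 4.64 to 6.21 FPKM in the same order. Of 5 sinusoidal endothelial markers, 4 were called between IR and sham and 3 between IPO and IR. Of 4 stellate cell markers, 2 and 1 were called, of 4 neutrophil markers 1 and 1, and of 3 erythroid markers 0 and 1. Of 2 cholangiocyte markers tested, 0 and 1 were called. These calls are counted without direction. Among 9649 genes, 3.86% were higher and 7.64% lower in IR than in sham, and 12.0% and 10.1% in IPO than in IR. In IPO, IR and sham, endothelial markers summed to 52.8 to 63.2, 49.1 to 82.1 and 41.85 to 69.3 FPKM. Stellate cell markers summed to 25.1 to 28.7, 32.6 to 42.45 and 21.8 to 26.65 FPKM. The part of these cell types in the results was not tested.

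In IR livers, intergenic loci fell far more often than they rose. In the fit of log2(FPKM + 0.5) over all 5779 loci (limma with Benjamini-Hochberg adjustment, called at an adjusted p under 0.05, two-sided), 141 of the 993 loci were lower in IR than in sham livers and 18 were higher. The share of lower loci among the 993 was 14.2%, against 9.33% of all 5779 loci, and the share of higher loci was 1.81%, against 3.31%. Among 9649 genes of the gene table fitted in the same way, 7.64% were lower and 3.86% were higher. The median log2 difference between IR and sham was -0.23 over the 993 loci, -0.09 over all loci and -0.05 over genes. Scaling libraries by median-of-ratios factors from the gene table gave medians of -0.17, -0.03 and 0.01. At least a 2-fold difference on the log2(FPKM + 0.5) scale, which understates the change of weak loci, was found for 111 of the lower and 16 of the higher loci. In these bulk samples, a lower level cannot be told apart from fewer cells of the type that makes the RNA. The groups did not overlap in any of the 159 called loci, and they did not overlap in 297 of all 993. The 2-fold and overlap counts were not made over all 5779 loci, so they describe the 993 only.

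These counts moved when 1 library was left out, which also leaves fewer samples in the fit. The 141 lower loci became 91 without IR library 1, 90 without IR library 2, 65 without sham library 1 and 63 without sham library 2. The 18 higher loci became 28 without IR library 3, 9 without sham library 1 and 7 without sham library 2. The sample descriptions carry a number whose meaning is not stated. It is the same in all 3 IR libraries and in sham library 2, and another in sham libraries 1 and 3. All 3 IPO libraries carry a number of their own, so it cannot be told apart from the group in any comparison with IPO. With the description number as a term in the fit, 53 loci were lower and 7 were higher in IR than in sham. Of the 20 largest rises and falls between IR and sham described below, 10 were not called with this term. These were MSTRG.1727 (adjusted p = 0.0688), MSTRG.23296 (0.0902), MSTRG.23274 (0.0724), MSTRG.12098 (0.204), MSTRG.9151 (0.15) and MSTRG.12756 (0.0647) among the rises, and MSTRG.5614 (0.0832), MSTRG.24760 (0.0710), MSTRG.13897 (0.103) and MSTRG.6277 (0.0843) among the falls. Outside these 20, the calls of MSTRG.9973 (adjusted p = 0.207), MSTRG.4157 (0.179), MSTRG.13620 (0.171) and MSTRG.7014 (0.290) between IR and sham also ended.

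The minimum of 1 FPKM was set on the mean over all 9 libraries, so a weak locus could pass through 1 group alone, and such a locus is one that differs by selection. With a mean under 1 FPKM over the other 6 libraries, 67 loci passed through IPO, 47 through IR and 90 through sham. Of the 18 loci higher in IR than in sham, 7 had passed through IR, and of the 141 lower ones 20 had passed through sham. Of the 173 loci higher in IPO than in IR, 25 had passed through IPO, and of the 40 lower ones 11 had passed through IR. Among the loci named below these were MSTRG.1727, MSTRG.22778, MSTRG.11771, MSTRG.20758, MSTRG.23274, MSTRG.9151 and MSTRG.18245 through IR, MSTRG.20556, MSTRG.24760 and MSTRG.7937 through sham, and MSTRG.10277, MSTRG.10356 and MSTRG.11648 through IPO. Their values and p-values describe loci selected in this way.

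Among the loci that rose, the one next to Atf3 had no signal outside IR. Atf3 encodes a transcription factor that is induced by many kinds of cell stress. MSTRG.1727 (chr1:191168677-191169108, minus strand) began 1187 bases beyond the end of Atf3 on the same strand, in no annotated gene. It had 1.76, 1.76 and 7.54 FPKM in IR livers and was listed at 0 in all 3 IPO and all 3 sham livers. The products of level and span in IR correspond to 3270, 2900 and 12478 covered bases, and its difference was called both between IR and sham (adjusted p = 0.00717) and between IPO and IR (adjusted p = 0.00483). No fold is given, since the other groups were at 0. MSTRG.1727 passed the filter through its IR libraries alone, and its call between IR and sham ended with the description number as a term (adjusted p = 0.0688). Atf3 itself was 4.62 higher on the log2 scale in IR than in sham livers (adjusted p = 0.00374) and -4.99 in IPO against IR (adjusted p = 0.00127).

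The next largest rises lay downstream of Acsl1 and Elovl3, and both loci passed the filter through their IR libraries alone. MSTRG.22778 (chr8:46537616-46539552, plus strand) lay 1564 bases downstream of Acsl1, which encodes a long-chain acyl-CoA synthetase. It had 0, 0.0423 and 0 FPKM in IPO livers, 4.5, 2.42 and 2.34 FPKM in IR livers and 0.0716, 0.0654 and 0.0817 FPKM in sham livers. The IR libraries were all far above the other 6, with a log2 difference of 2.60 ± 0.29 (SE, adjusted p = 0.00161) between IR and sham and -2.75 ± 0.29 (SE, adjusted p = 0.000617) between IPO and IR. Acsl1 differed by 0.49 (adjusted p = 0.20) and -0.78 (adjusted p = 0.0444). The difference between locus and gene was itself called in both comparisons (adjusted p = 0.00539 and 0.00661) and in all 9 fits that left out 1 library. MSTRG.11771 (chr19:46137452-46139065, plus strand) lay 2144 bases downstream of Elovl3, a fatty acid elongase gene, and opposite the homeobox gene Pitx3. It had 0.438, 0.907 and 0.54 FPKM in IPO livers, 2.87, 4.56 and 3.28 FPKM in IR livers and 0.715, 0.257 and 0.375 FPKM in sham livers. All 3 IR libraries exceeded the other 6, with a log2 difference of 2.11 ± 0.27 (SE, adjusted p = 0.00326) between IR and sham, and Elovl3 was 1.32 higher (adjusted p = 0.0117).

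Further rising loci lay downstream of a stress gene and of a cytochrome P450 gene. MSTRG.23296 (chr8:94396191-94396434, plus strand) lay 813 bases downstream of Herpud1, whose product takes part in the disposal of misfolded proteins from the endoplasmic reticulum. It had 1.24, 1.85 and 1.48 FPKM in IPO livers, 6.02, 12.4 and 11.5 FPKM in IR livers and 0.999, 2.49 and 2.67 FPKM in sham livers, a log2 difference between IR and sham of 2.05 ± 0.34 (SE, adjusted p = 0.0069) that was not called with the description number as a term (adjusted p = 0.0902). Herpud1 differed by 1.13 (adjusted p = 0.0974) in that comparison and by -2.16 (adjusted p = 0.00684) between IPO and IR. MSTRG.20758 (chr7:27039164-27042849, plus strand) lay 1788 bases downstream of Cyp2a12. It had 0.796, 0.872 and 0.608 FPKM in IPO livers, 2.8, 2.3 and 2.69 FPKM in IR livers and 0.404, 0.259 and 0.271 FPKM in sham livers. IR libraries were above all others and IPO libraries above all sham libraries, with a log2 difference of 1.93 ± 0.20 (SE, adjusted p = 0.00132) between IR and sham and -1.30 ± 0.20 (SE, adjusted p = 0.00337) between IPO and IR. Cyp2a12 was not called (0.29, adjusted p = 0.123, and -0.17, adjusted p = 0.296).

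Some of the risers are annotated non-coding or pseudogene transcripts. MSTRG.9795 (chr17:33974634-33979770, minus strand) covered exons of H2-K2, a gene of the class I histocompatibility region, and had 0.584, 1.03 and 0.948 FPKM in IPO livers, 4.55, 2.95 and 5.24 FPKM in IR livers and 1.17, 0.747 and 1.62 FPKM in sham livers. Its log2 difference was 1.50 ± 0.27 (SE, adjusted p = 0.00961) between IR and sham and -1.79 ± 0.27 (SE, adjusted p = 0.00309) between IPO and IR. MSTRG.23274, on the GENCODE gene Gm45727 and 4488 bases downstream of the carboxylesterase gene Ces1f, had 4.1, 2.64 and 3.95 FPKM in IR livers, against 0.299, 0.497 and 1.26 FPKM in sham livers, a log2 difference of 1.84 ± 0.34 (SE, adjusted p = 0.0114) that was not called with the description number as a term (adjusted p = 0.0724). Ces1f was not called (0.38, adjusted p = 0.157).

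The other 3 of the 10 largest rises lost their calls when some libraries were left out. MSTRG.12756, near Hnrnpa3, had 66.2, 85.3 and 148 FPKM in IPO livers, 105, 82.2 and 126 FPKM in IR livers and 54.8, 26 and 30.5 FPKM in sham livers, so that IPO and IR overlapped while both lay above sham (IR against sham 1.53 ± 0.34 (SE, adjusted p = 0.0233)). Its call ended without IR library 1 (adjusted p = 0.0643), IR library 3 (0.0556) or sham library 2 (0.0876), with log2 differences of 1.52, 1.38 and 1.32 there. MSTRG.9151, on the long non-coding RNA E330011O21Rik, had a log2 difference of 1.71, and its call ended without IR library 1 (adjusted p = 0.0612), sham library 1 (0.0608) or sham library 2 (0.0534), with differences of 1.52, 1.72 and 1.80. The call of MSTRG.12098 held only without IR library 3 or sham library 3, and ended without any of the other 7 libraries (adjusted p = 0.0563 to 0.144). Its log2 difference was 2.03 with all libraries and 1.40 to 2.11 in those fits.

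**Figure D1:**
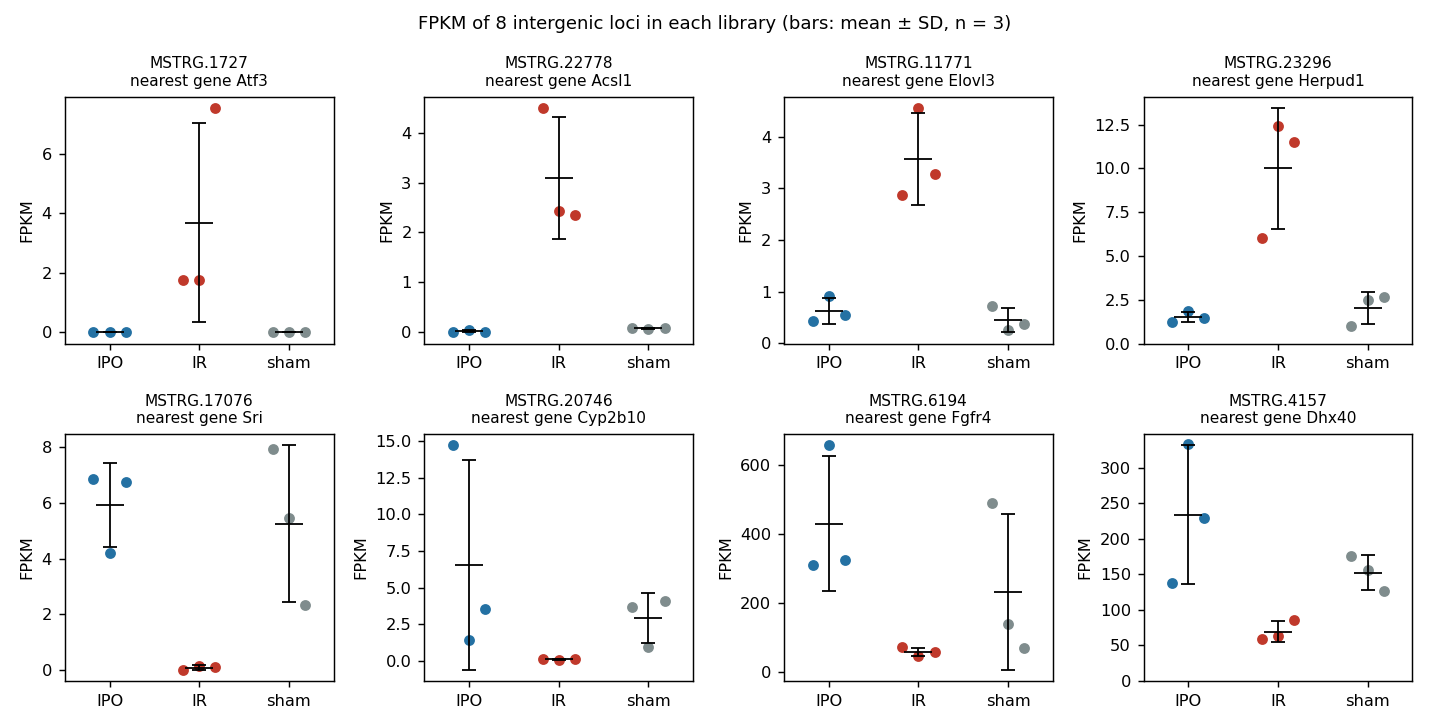
FPKM of 8 intergenic loci in each library (points) with the mean and SD of each group of 3, in the order IPO, IR and sham. MSTRG.1727 has signal in the IR libraries only, MSTRG.22778, MSTRG.11771 and MSTRG.23296 are higher in all IR than in all other libraries, and MSTRG.17076 is lower; the SD of sham is wide for MSTRG.6194, with values of 492, 139 and 70.0 FPKM.

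Among the loci that fell in IR, a pseudogene of the serpin family led by size on the log2(FPKM + 0.5) scale. This scale understates the change of weak loci. MSTRG.5614 (chr12:104077920-104086918, plus strand) covered Serpina4-ps1, a pseudogene in the cluster of serine protease inhibitor genes. It had 12.3, 8.37 and 6.87 FPKM in IPO livers, 0.897, 0.882 and 1.16 FPKM in IR livers and 35.7, 9.6 and 6.43 FPKM in sham livers. Every IR library was below every other library, with a log2 difference of -3.21 ± 0.52 (SE, adjusted p = 0.00616) between IR and sham and 2.68 ± 0.52 (SE, adjusted p = 0.00859) between IPO and IR. The sham mean rested largely on sham library 1. The call between IR and sham held without that library, and ended with the description number as a term (adjusted p = 0.0832).

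Several of the largest falls were in loci far from any listed gene. MSTRG.17076 (chr5:8193202-8207405, plus strand) lay opposite Adam22, a member of the disintegrin and metalloprotease family, and 123822 bases from Sri, the nearest listed gene. It had 6.85, 4.19 and 6.77 FPKM in IPO livers, 0.00487, 0.15 and 0.0935 FPKM in IR livers and 7.96, 5.48 and 2.32 FPKM in sham livers. It was nearly absent from IR livers, with a log2 difference of -3.17 ± 0.37 (SE, adjusted p = 0.00187) between IR and sham and 3.44 ± 0.37 (SE, adjusted p = 0.00065) between IPO and IR, while Sri, which encodes the calcium-binding protein sorcin, was not called (adjusted p = 0.622 and 0.93). MSTRG.6973 (chr14:40118067-40127055, minus strand), in no annotated gene, had 3.17, 2.51 and 5.09 FPKM in IPO livers, 0.0062, 0.0369 and 0.0592 FPKM in IR livers and 4.11, 1.99 and 2.41 FPKM in sham livers. Its groups IR and sham did not overlap, nor did IPO and IR, with log2 differences of -2.59 ± 0.29 (SE, adjusted p = 0.00161) and 2.89 ± 0.29 (SE, adjusted p = 0.000606). MSTRG.20556 (chr7:15088496-15088855, minus strand) was listed at 0 in 2 of 3 IR livers. It had 0.924, 2.51 and 1.74 FPKM in IPO livers, 0, 0.0794 and 0 FPKM in IR livers and 3.81, 3.23 and 0.993 FPKM in sham livers, a log2 difference between IR and sham of -2.46 ± 0.42 (SE, adjusted p = 0.00782).

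The locus at the end of Cyp3a13, a cytochrome P450 gene of drug metabolism, fell with its gene. MSTRG.18647 (chr5:137891854-137892124, minus strand) lay 807 bases downstream of it and had 11.5, 6.43 and 6.93 FPKM in IPO livers, 2.06, 2.78 and 3.33 FPKM in IR livers and 18.5, 15.1 and 15.2 FPKM in sham livers. All IR libraries were lowest and all sham libraries highest, with a log2 difference of -2.39 ± 0.23 (SE, adjusted p = 0.00132) between IR and sham and 1.42 ± 0.23 (SE, adjusted p = 0.00457) between IPO and IR. Cyp3a13 was -1.09 (adjusted p = 0.00261) and 0.75 (adjusted p = 0.00557) in the same comparisons.

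Other loci among the largest falls were in neither annotation. MSTRG.7937 (chr15:75205686-75207369, minus strand) had 1.43, 1.42 and 1.48 FPKM in IPO livers, 0.181, 0.046 and 0.162 FPKM in IR livers and 2.9, 2.64 and 1.74 FPKM in sham livers, a log2 difference between IR and sham of -2.20 ± 0.22 (SE, adjusted p = 0.00132). MSTRG.20400 (chr6:149391529-149392133, minus strand) had 4.44, 4.44 and 5.27 FPKM in IPO livers, 0.0956, 0.0767 and 0.472 FPKM in IR livers and 3.12, 4.36 and 1.4 FPKM in sham livers, a log2 difference between IR and sham of -2.22 ± 0.34 (SE, adjusted p = 0.0052).

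The last 3 of the 10 largest falls lost their calls when some libraries were left out, while their differences stayed large. MSTRG.13897, 2178 bases downstream of the zinc finger gene Gm14327, had 2.19, 13.1 and 13 FPKM in IR livers, against 31.6, 54 and 41.9 FPKM in sham livers, and its call ended without sham library 1 (adjusted p = 0.0609) or sham library 2 (0.0968), where the log2 difference was -2.60 and -2.22, against -2.41 with all libraries. That of MSTRG.24760, with 0.155, 0 and 0.205 FPKM in IR livers, against 4.64, 5.12 and 1.34 FPKM in sham livers, ended without IR library 1 (adjusted p = 0.0524), IR library 2 (0.0603), sham library 1 (0.0834) or sham library 2 (0.0781), with log2 differences of -2.66 to -2.33 there and -2.62 with all libraries. The call of MSTRG.6277 ended without the same 4 libraries (adjusted p = 0.0575 and 0.0573 without IR libraries 1 and 2, 0.0697 and 0.0675 without sham libraries 1 and 2), with log2 differences of -2.21 to -2.05 there and -2.37 with all libraries.

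In IPO livers, most called loci were higher than in IR livers. Of the 993 loci, 173 were higher in IPO than in IR livers and 40 were lower. The share of higher loci among the 993 was 17.4%, against 11.9% of all 5779 loci and 12.0% of genes. Lower loci made up 4.03%, against 8.03% of all loci and 10.1% of genes. The median log2 difference between IPO and IR was 0.19 over the 993 loci, 0.03 over all loci and 0.02 over genes. At least a 2-fold difference was found for 149 of the higher and 23 of the lower loci. The groups did not overlap in 212 of the 213 called loci, and in 353 of all 993. Here too the 2-fold and overlap counts were not made over all 5779 loci and describe the 993 only. The 173 higher loci became 114 without IPO library 1, 103 without IPO library 2 and 115 without IPO library 3. The 40 lower loci became 26 without IR library 2, 19 without IPO library 1 and 21 without IPO library 3. The description number differed between all IPO and all IR libraries, so its part in these calls could not be separated from the group.

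The IR libraries enter both comparisons, so the calls of IR against sham and of IPO against IR are not independent of each other. The values of both are given side by side for the loci named.

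Loci beside P450 genes of drug and bile acid metabolism were among the largest rises in IPO against IR. MSTRG.11648 (chr19:40137579-40152895, minus strand) began 457 bases downstream of Cyp2c70, the mouse enzyme that forms muricholic acids. It had 4.93, 4.65 and 3.03 FPKM in IPO livers, 0.0146, 0.0747 and 0.296 FPKM in IR livers and 0.842, 0.554 and 1.04 FPKM in sham livers. IPO libraries were above all others and IR libraries below all others, with a log2 difference of 2.90 ± 0.27 (SE, adjusted p = 0.000501) between IPO and IR. Cyp2c70 differed by 2.27 (adjusted p = 0.000318). MSTRG.20746 (chr7:25930965-25934629, plus strand) lay 4340 bases downstream of Cyp2b10, a P450 gene that drugs and other foreign compounds induce in liver. It had 14.7, 1.4 and 3.55 FPKM in IPO livers, 0.131, 0.0504 and 0.116 FPKM in IR livers and 3.67, 0.981 and 4.1 FPKM in sham livers. The 3 IPO values spread more than 10-fold but all exceeded the IR values, with a log2 difference of 3.03 ± 0.69 (SE, adjusted p = 0.016) between IPO and IR, while that between IR and sham did not pass the test (-2.35, adjusted p = 0.0556). Cyp2b10 itself differed by -5.40 between IR and sham (adjusted p = 0.00139) and by 5.07 between IPO and IR (adjusted p = 0.000834).

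Of 14 intergenic loci whose nearest listed gene was a cytochrome P450, 1 was higher and 2 were lower in IR than in sham, and 3 were higher and 2 lower in IPO than in IR. Over all 5779 loci, 3.31% were higher and 9.33% lower in IR than in sham, and 11.9% were higher and 8.03% lower in IPO than in IR. The set was counted after values were seen.

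Abundant loci also rose. MSTRG.6194 (chr13:55184446-55189236, plus strand) lay 15686 bases downstream of Fgfr4, the hepatocyte receptor for the gut hormone FGF15, and was in no annotated gene. It had 311, 659 and 324 FPKM in IPO livers, 72.2, 47.2 and 57.5 FPKM in IR livers and 492, 139 and 70 FPKM in sham livers. The IPO values were all above the IR values, with a log2 difference of 2.79 ± 0.61 (SE, adjusted p = 0.0139), and this call ended without IPO library 2 (adjusted p = 0.0513). Between IR and sham the difference was -1.53 (adjusted p = 0.133), and it was called without sham library 3 (adjusted p = 0.0286). MSTRG.15773 (chr4:52683377-52683696, minus strand) had 45.4, 97.3 and 48.5 FPKM in IPO livers, 15.7, 4.55 and 7.66 FPKM in IR livers and 40.5, 20.4 and 10.3 FPKM in sham livers, with a log2 difference between IPO and IR of 2.79 ± 0.55 (SE, adjusted p = 0.00925).

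The remaining large rises were weak in IR. MSTRG.10356, upstream of the Ras exchange factor gene Sos1, had 1.74, 5.76 and 2.6 FPKM in IPO livers, 0, 0 and 0 FPKM in IR livers and 0.836, 2.0 and 0.62 FPKM in sham livers. It was called between IPO and IR (adjusted p = 0.0028), and no fold is given because IR was listed at 0. MSTRG.17076, MSTRG.6973 and MSTRG.20400, given above, also belonged to the 10 largest rises, the last with a log2 difference of 2.91 ± 0.34 (SE, adjusted p = 0.000983). MSTRG.6277 (chr13:62291681-62296897, minus strand) had 9.16, 8.92 and 8.21 FPKM in IPO livers, 0.0521, 0.13 and 1.31 FPKM in IR livers and 6.4, 5.03 and 1.79 FPKM in sham livers, a log2 difference between IPO and IR of 3.43 ± 0.49 (SE, adjusted p = 0.00267). MSTRG.14029, divergent from the corepressor gene Tbl1xr1 at a distance of 112065 bases, had 12.6, 17.3 and 15.4 FPKM in IPO livers, against 1.94, 0.281 and 1.96 FPKM in IR livers (log2 difference 3.21 ± 0.84 (SE, adjusted p = 0.0271)). Its call ended without IR library 2 (adjusted p = 0.0845) or without IPO library 1 (0.0672), 2 (0.0765) or 3 (0.0735).

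Among the 10 largest falls in IPO against IR were MSTRG.1727, MSTRG.22778, MSTRG.23296, MSTRG.23274, MSTRG.11771 and MSTRG.9795, described above. MSTRG.23296 fell by 2.32 ± 0.34 on the log2 scale (SE, adjusted p = 0.0028) and MSTRG.23274 by 2.21 ± 0.34 (SE, adjusted p = 0.00354). MSTRG.5124 showed another pattern. This locus (chr12:32751371-32771003, minus strand), on the RefSeq non-coding gene Gm40376 and divergent from Nampt, the gene of an enzyme of NAD synthesis, had 0.414, 0.90 and 1.16 FPKM in IPO livers, 2.65, 7.64 and 10.3 FPKM in IR livers and 4.42, 6.66 and 8.74 FPKM in sham livers. IPO libraries were all below IR and sham libraries, with a log2 difference between IPO and IR of -2.34 ± 0.44 (SE, adjusted p = 0.00804) and one between IR and sham of -0.08 (adjusted p = 0.921).

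The last 3 of the 10 largest falls in IPO lost their calls when some libraries were left out. MSTRG.22532 (log2 difference -1.92) lost its call without IR library 2 (adjusted p = 0.0573), IPO library 1 (0.0605) or IPO library 3 (0.0523), at -1.92 to -1.73. MSTRG.18245, in the non-coding gene Tbx3os1 (-1.95), lost it without IR library 1 (adjusted p = 0.0515), IR library 2 (0.104) or IPO library 1 (0.110), 2 (0.0679) or 3 (0.0532), at -2.19 to -1.53. MSTRG.20909, 658 bases downstream of the hydroxyproline dehydrogenase gene Prodh2 (-1.78), lost it without IR library 2 (adjusted p = 0.0898), IR library 3 (0.0848) or IPO library 1 (0.107), 2 (0.0673) or 3 (0.0702), at -1.89 to -1.57.

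Between IPO and sham livers, 2 of the 993 loci were higher and 0 were lower (limma), against 0.121% and 0.0519% of all 5779 loci. An unadjusted p under 0.05 was found for 135 of the 993 loci and for 773 of all 5779. Both called loci passed the filter through their IPO libraries alone, so they were selected for being high in IPO. MSTRG.10277 (chr17:74055777-74080240, minus strand), upstream of the steroid reductase gene Srd5a2 and on the RefSeq gene Gm31235, had 2.72, 3.1 and 2.67 FPKM in IPO livers, 0.422, 0.337 and 0.65 FPKM in IR livers and 0.329, 0.439 and 0.779 FPKM in sham livers. IPO libraries were all above IR and sham libraries, which overlapped, with a log2 difference between IPO and sham of 1.74 ± 0.23 (SE, adjusted p = 0.0367) and one between IPO and IR of 1.79 ± 0.23 (SE, adjusted p = 0.00175). MSTRG.11648, downstream of Cyp2c70, was the other, with a log2 difference of 1.83 ± 0.27 (SE, adjusted p = 0.0433). Its call ended on leaving out any 1 of the 9 libraries (adjusted p = 0.0505 to 0.188). That of MSTRG.10277 held only without sham library 3 and ended without any of the other 8 (adjusted p = 0.0505 to 0.162).

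**Figure D2:**
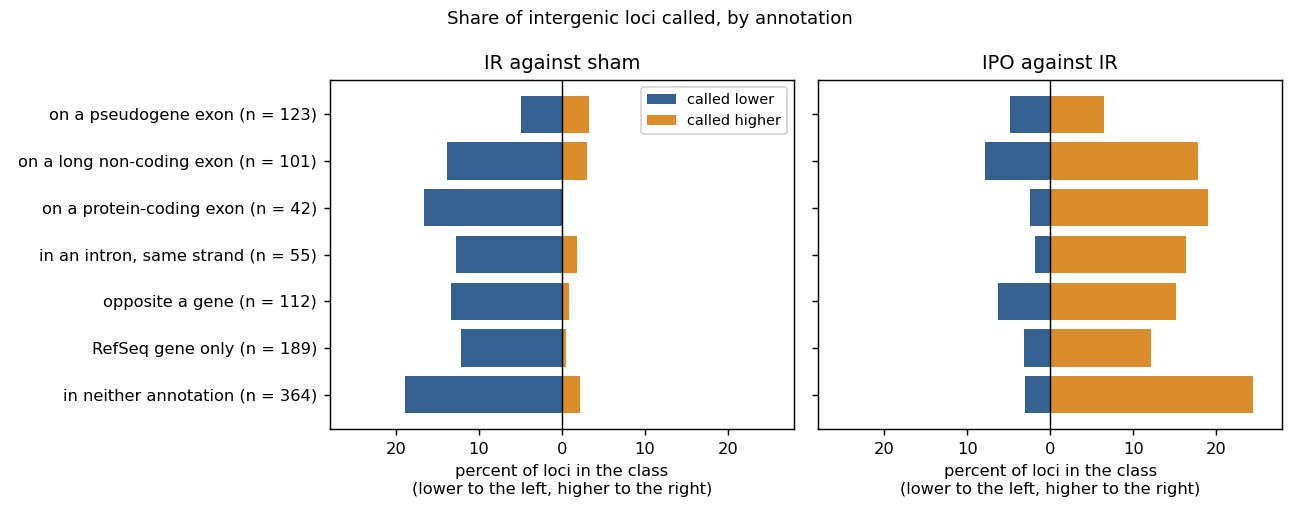
Percentage of intergenic loci called higher and lower in IR against sham and in IPO against IR, by what GENCODE M21 and RefSeq place at the locus. The long non-coding class holds every gene type other than protein-coding, pseudogene, small RNA and TEC. Loci in neither annotation (n = 364) have 19% lower in IR than in sham and 24.5% higher in IPO than in IR, and loci on pseudogene exons (n = 123) have 4.88% and 6.50%.

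Calls were counted by kind of locus, as a description without a test. Among all 993 loci, 1.81% were higher and 14.2% lower in IR than in sham. In IPO against IR, 17.4% of them were higher and 4.03% lower. Over all 5779 loci these shares were 3.31% and 9.33%, and 11.9% and 8.03%. Of the 364 loci in neither annotation, 8 were higher and 69 lower in IR than in sham, and 89 were higher and 11 lower in IPO than in IR. Their median log2 differences were -0.35 and 0.43. Of the 123 loci on pseudogene exons, 4 were higher and 6 lower in IR than in sham, and 8 were higher and 6 lower in IPO than in IR, with medians of 0.12 and 0.04. Of the 101 loci on exons of the long non-coding class, 3 were higher and 14 lower in IR than in sham. In IPO against IR, 18 of these 101 were higher and 8 lower. Of the 42 loci on exons of protein-coding genes, 0 were higher and 7 lower in IR than in sham, and 8 were higher and 1 lower in IPO than in IR. Of the 112 loci opposite a gene, 1 was higher and 15 were lower in IR than in sham, and 17 were higher and 7 lower in IPO than in IR. The shares lower in IR than in sham and higher in IPO than in IR lay near those of the 993 in 3 of these kinds. They were 13.9% and 17.8% on long non-coding exons, 16.7% and 19.05% on protein-coding exons, and 13.4% and 15.2% opposite a gene.

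Differences of loci just past the end of a gene correlated with those of the gene, and differences of other loci did so weakly, as a description without a test. Of the 993 loci, 886 had a nearest listed gene that passed the filter. Over the 212 pairs in which the locus lay downstream on the same strand within 5000 bases, the log2 differences of locus and gene had a Pearson correlation of 0.76 between IPO and IR and 0.60 between IR and sham. Over 96 pairs within 5000 bases in another orientation it was 0.30 and 0.09, and over 578 pairs at 5000 bases or more it was 0.09 and 0.06. These are correlations across loci, which share libraries and are not independent, so they describe these 9 libraries. Among 46 called loci just downstream on the same strand, the gene was called in the same direction in 31, in the other in 1 and not at all in 14 between IPO and IR. Between IR and sham, 36 such loci were called, with the gene called in the same direction in 15 and not called in 21. Among 120 called loci at 5000 bases or more, the gene was called in the same direction in 22, in the other in 9 and not at all in 89 between IPO and IR. Between IR and sham these were 13, 1 and 71 of 85.

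**Figure D3:**
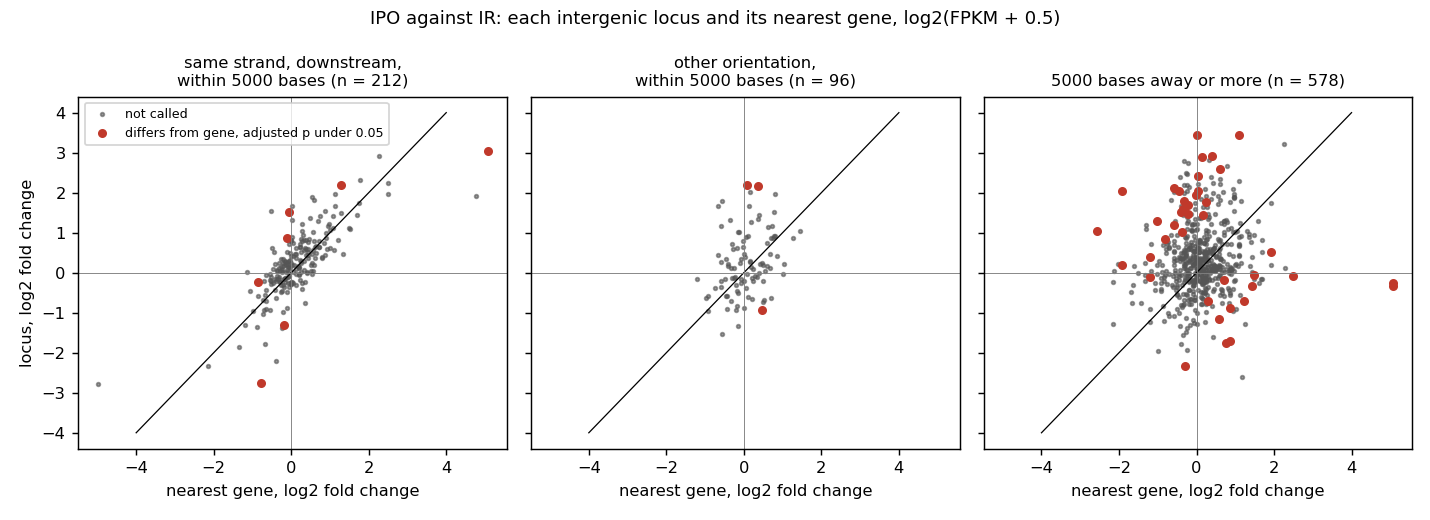
Log2 difference between IPO and IR of each intergenic locus (vertical axis) against that of its nearest listed gene (horizontal axis), for 212 loci within 5000 bases downstream on the same strand, 96 within 5000 bases in another orientation and 578 at 5000 bases or more. Points follow the diagonal in the first panel (r = 0.76) and scatter in the others (r = 0.30 and 0.09).

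Loci that extend protein-coding genes were examples of the first kind, chosen after their values were seen. MSTRG.23290 (chr8:94017349-94017752, minus strand) began 17 bases beyond the listed end of Nudt21, a subunit of the machinery that selects polyadenylation sites. It had 11.5, 8.51 and 6.74 FPKM in IPO livers, against 1.33, 4.48 and 2.96 FPKM in IR livers, a log2 difference of 1.54 ± 0.33 (SE, adjusted p = 0.0135), and Nudt21 differed by 0.88 (adjusted p = 0.00717). The call of the locus ended without IPO library 1 (adjusted p = 0.0521). MSTRG.23453, 644 bases beyond Sntb2, a syntrophin gene, had 3.81, 5.96 and 4.33 FPKM in IPO livers, against 0.658, 1.18 and 1.37 FPKM in IR livers, a log2 difference of 1.74 ± 0.24 (SE, adjusted p = 0.00233), beside 1.76 for Sntb2 (adjusted p = 0.00062).

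Some loci moved by another amount than their nearest gene. The difference between locus and gene was called for 26 of the 886 pairs between IR and sham, where 1.07% of all 5609 pairs were called, and for 50 between IPO and IR, where 2.05% were called. Between IPO and sham it was called for 0 of the 886, against 0.0357% of all pairs. Of the 26 calls, 1 held in all 9 fits that left out 1 library, that of MSTRG.22778 given above, and of the 50 calls 8 held. MSTRG.22778 had passed the filter through its IR libraries alone, and the fits that left out 1 library kept that selection. The counts ran from 3 without sham library 2 to 71 without sham library 3 between IR and sham, and from 14 without IPO library 3 to 69 without sham library 3 between IPO and IR.

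The 8 pairs that held in every fit between IPO and IR included loci that fell while the gene did not, and the reverse. MSTRG.3449 (chr11:54400987-54402542, plus strand), on the pseudogene Gm12226 and upstream of the folliculin-interacting gene Fnip1, had 1.06, 2.08 and 1.88 FPKM in IPO livers, against 5.29, 6.78 and 8.09 FPKM in IR livers. Its log2 difference was -1.75 ± 0.27 (SE, adjusted p = 0.00354) beside 0.75 for Fnip1 (adjusted p = 0.0644), and the difference between them had an adjusted p of 0.00213. Of the 31-base words of Gm12226, 92.7% are also in Oser1, which differed by -0.66 between IPO and IR (adjusted p = 0.0782), so reads of Oser1 and of this locus could be assigned to each other. MSTRG.7440 (chr14:70361110-70361477, plus strand) lay 9684 bases from Slc39a14, the gene of a zinc and iron transporter, and pointed away from it. It had 1.36, 0.855 and 0.568 FPKM in IPO livers, 0.63, 0.944 and 1.43 FPKM in IR livers and 1.5, 1.54 and 1.02 FPKM in sham livers, all groups overlapping, and was not called (-0.08, adjusted p = 0.872), whereas Slc39a14 differed by 2.50 (adjusted p = 0.000216; difference of the pair, adjusted p = 0.0109). MSTRG.23193 (chr8:85129284-85131154, minus strand), in the non-coding gene Gm42031, had 18.2, 15.7 and 10.9 FPKM in IPO livers, against 3.16, 4.43 and 4.02 FPKM in IR livers. Its log2 difference was 1.80 ± 0.21 (SE, adjusted p = 0.00090) beside -0.32 for Man2b1, a lysosomal mannosidase gene (difference of the pair, adjusted p = 0.0107). The other 5 were MSTRG.6973, MSTRG.13620, MSTRG.17076, MSTRG.22778 and MSTRG.25201.

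Host genes of small nucleolar RNAs, which are spliced transcripts whose introns release guide RNAs for ribosomal RNA modification, were higher in IPO than in IR livers in 3 of 6 loci, and none was lower. Of the 993 loci 17.4% were higher and 4.03% lower in this comparison, and of all 5779 loci 11.9% and 8.03%. The set was picked by gene name after values were seen. MSTRG.11302 (Snhg1; chr19:8725022-8726441, plus strand) had 6.0, 8.38 and 7.22 FPKM in IPO livers, 1.89, 2.81 and 2.95 FPKM in IR livers and 6.03, 4.07 and 3.89 FPKM in sham livers. IPO libraries were all above IR libraries, and the log2 difference was 1.34 ± 0.21 (SE, adjusted p = 0.00395). MSTRG.12216 (Snhg7; promoter shown above) had 2.6, 3.69 and 3.52 FPKM in IPO livers, 1.51, 1.05 and 0.618 FPKM in IR livers and 2.72, 2.96 and 1.34 FPKM in sham livers, with a log2 difference between IPO and IR of 1.30 ± 0.29 (SE, adjusted p = 0.0157), a call that ended without IPO library 2 (adjusted p = 0.0571) or 3 (0.0555). MSTRG.13620 (Snhg17; promoter shown above) had 2.29, 2.81 and 2.52 FPKM in IPO livers, 1.49, 0.817 and 0.794 FPKM in IR livers and 2.74, 2.17 and 2.11 FPKM in sham livers, with a log2 difference between IPO and IR of 1.01 ± 0.21 (SE, adjusted p = 0.0104). It was the 1 of the 6 called between IR and sham (-0.91, adjusted p = 0.0237), a call that ended without IR library 2 (adjusted p = 0.0699), IR library 3 (0.0526), sham library 1 (0.0968) or sham library 2 (0.0648). Gas5, Snhg15 and the locus in the Snhg14 region were not called, with log2 differences between IPO and IR of 0.73, 0.89 and -0.56.

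Other annotated long non-coding RNAs, also chosen after values were seen, went both ways. MSTRG.24640 (Gm34654; promoter shown above; chr9:77800750-77851943, minus strand) had 0.912, 1.47 and 1.97 FPKM in IPO livers, 6.67, 5.56 and 4.97 FPKM in IR livers and 1.7, 1.36 and 2.9 FPKM in sham livers. All IR libraries were highest, with log2 differences of 1.36 ± 0.27 (SE, adjusted p = 0.0141) between IR and sham and -1.71 ± 0.27 (SE, adjusted p = 0.00375) between IPO and IR. The first call ended without sham library 1 (adjusted p = 0.0571) or 2 (0.0564). Its nearest gene was Gclc, the catalytic subunit of the first enzyme of glutathione synthesis, which differed by 0.85 between IPO and IR (adjusted p = 0.0766). MSTRG.505 (Gm8883; promoter shown above) had 16.5, 12.1 and 15.2 FPKM in IPO livers, 4.7, 5.7 and 4.49 FPKM in IR livers and 18.9, 22.4 and 10.5 FPKM in sham livers. All IR libraries were lowest, with log2 differences of -1.64 ± 0.26 (SE, adjusted p = 0.00579) and 1.46 ± 0.26 (SE, adjusted p = 0.00623) in the same comparisons. MSTRG.7979, on the long non-coding gene Mirt2 (chr15:76266466-76269840, minus strand), had 2.02, 1.69 and 2.23 FPKM in IPO livers, 0.499, 0.692 and 0.901 FPKM in IR livers and 1.95, 3.53 and 2.21 FPKM in sham livers, with -1.33 ± 0.23 (SE, adjusted p = 0.00833) between IR and sham and 1.06 ± 0.23 (SE, adjusted p = 0.014) between IPO and IR. The second call ended without IPO library 3 (adjusted p = 0.0537).

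The abundant nuclear RNAs Malat1 and Neat1 were not called. MSTRG.11203 on Malat1, a nuclear speckle RNA, had 16.9, 1.3 and 1.75 FPKM in IPO livers, 3.11, 9.22 and 29.9 FPKM in IR livers and 6.38, 13.6 and 1.21 FPKM in sham livers, and all 3 groups overlapped. MSTRG.11207 on Neat1, the scaffold of paraspeckles, had 5.42, 12.2 and 11.1 FPKM in IPO livers, 7.11, 12 and 12.1 FPKM in IR livers and 13.2, 14.6 and 14.5 FPKM in sham livers, with no call in either comparison (adjusted p = 0.348 between IR and sham and 0.751 between IPO and IR). MSTRG.16057, which holds the miR-101a hairpin shown above, varied widely within every group and had 0.00907, 8.84 and 1.67 FPKM in IPO livers, 2.97, 0.00155 and 0.00184 FPKM in IR livers and 0.00229, 0.0333 and 1.83 FPKM in sham livers. MSTRG.16397, on the ferritin pseudogene Ftl2-ps and holding the Mir692-2 hairpin, had 48.9, 60.7 and 50.1 FPKM in IPO livers, 113, 55 and 63 FPKM in IR livers and 45.5, 51 and 37.4 FPKM in sham livers and was not called.

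Immunoglobulin and T cell receptor constant genes, which mark B and T lymphocytes, were highest in 1 library. MSTRG.19452 on Igkc had 1.61, 1.16 and 1.63 FPKM in IPO livers, 1.78, 3.16 and 11.2 FPKM in IR livers and 1.94, 0.991 and 1.51 FPKM in sham livers, and MSTRG.19212 on Trbc2 had 0.853, 0.865 and 0.259 FPKM in IPO livers, 0.853, 0.529 and 7.66 FPKM in IR livers and 0.645, 0.459 and 0.516 FPKM in sham livers. IR library 3 was highest for both, as it was for Ighg2b and Ighm, and none of the 4 loci was called.

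Some intergenic loci lay in runs on 1 strand. Joining loci less than 10000 bases apart gave 911 groups, in which 845 loci stood alone and 148 had a neighbour, with at most 5 in a group. The group of 5 (chr13:67884896-67893532, minus strand) lay in no annotated gene, 57893 bases or more from the zinc finger gene Zfp273. All 5 were lower in IR than in sham and higher in IPO than in IR. Its strongest member, MSTRG.6356, had 125, 129 and 80.4 FPKM in IPO livers, 20.1, 25.8 and 45 FPKM in IR livers and 109, 139 and 80.8 FPKM in sham livers, with log2 differences of -1.88 ± 0.32 (SE, adjusted p = 0.00782) and 1.91 ± 0.32 (SE, adjusted p = 0.00483). MSTRG.6358 had 76.7, 65.3 and 51.3 FPKM in IPO livers, 7.24, 15.7 and 11.7 FPKM in IR livers and 59.2, 44.9 and 45.4 FPKM in sham livers, with -2.12 ± 0.27 (SE, adjusted p = 0.00323) between IR and sham and 2.48 ± 0.27 (SE, adjusted p = 0.000681) between IPO and IR. The calls of MSTRG.6351 and MSTRG.6359 between IR and sham ended without sham library 1 (adjusted p = 0.0549 and 0.0581) or sham library 2 (0.0552 and 0.0555). A group of 4 on chromosome 9 (chr9:41905570-41912272, minus strand), partly on the RefSeq gene Gm40514, had 3 lower in IR than in sham and 3 higher in IPO than in IR. MSTRG.24154 of this group had 53.4, 40.3 and 41.5 FPKM in IPO livers, 6.86, 7.22 and 6.83 FPKM in IR livers and 34.9, 33.3 and 20.7 FPKM in sham livers, with -1.98 ± 0.21 (SE, adjusted p = 0.00132) between IR and sham and 2.60 ± 0.21 (SE, adjusted p = 0.000501) between IPO and IR. Loci of a run may be pieces of 1 transcript, so they are not independent counts.

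The most abundant intergenic locus covered copies of mitochondrial genes. MSTRG.121 (chr1:24565914-24615565, minus strand) had 3307, 2358 and 3341 FPKM in IPO livers, 1717, 2582 and 3025 FPKM in IR livers and 2689, 2849 and 2825 FPKM in sham livers. It was not called in either comparison (adjusted p = 0.511 and 0.319). It covers 6 nuclear pseudogenes of mitochondrial genes, of whose 31-base words 99.0% to 100% are also in mt-Nd4, mt-Nd4l, mt-Nd3, mt-Co3, mt-Atp6 or mt-Co2. Reads of the mitochondrial genes, none of which was called, cannot be told apart from reads of this locus by sequence.

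MSTRG.9973 (chr17:39843013-39848788, plus strand) covers Gm26917 and Rn18s-rs5, copies of ribosomal RNA sequence. It had 131, 146 and 132 FPKM in IPO livers, 429, 429.6 and 185 FPKM in IR livers and 156, 156 and 139 FPKM in sham livers. IR libraries 1 and 2 stood far above all others, and IR library 3 stood slightly above IPO and sham. Its log2 difference was 1.11 ± 0.29 (SE, adjusted p = 0.0374) between IR and sham and -1.25 ± 0.29 (SE, adjusted p = 0.0168) between IPO and IR. The first call held only without IR library 3 and ended without any other library (adjusted p = 0.0568 to 0.106). The second ended without IR library 1 (adjusted p = 0.0502), IR library 2 (0.0557), IPO library 1 (0.0546) or IPO library 3 (0.0540).

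Loci elsewhere in the genome followed the same pattern, a set chosen after values were seen. With a Pearson correlation above 0.9 to MSTRG.9973 over the 9 libraries, used as a measure of likeness only since 2 libraries stand apart, 10 loci were found. Of these, 9 spanned under 500 bases, and MSTRG.2767 spanned 20040. MSTRG.13974 (chr3:5860337-5860815, plus strand) was the most abundant, with 339, 305 and 256 FPKM in IPO livers, 1063, 937 and 318 FPKM in IR livers and 301, 307 and 338 FPKM in sham livers. MSTRG.22532 (chr8:15519774-15520125, plus strand) had 26.5, 35.5 and 30.4 FPKM in IPO livers, 208, 155 and 50.2 FPKM in IR livers and 43.8, 53.7 and 34.4 FPKM in sham livers. Across the 10 loci, IR library 1 was 2.10 to 13.2 times and IR library 2 was 1.85 to 4.97 times the sham mean, while IR library 3 was 0.896 to 1.14 times. MSTRG.13974, MSTRG.7558 and MSTRG.20330 were not called in either comparison with all 9 libraries, and were called in both without IR library 3. What share of rRNA sequence these libraries hold was not tested.

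**Figure D4:**
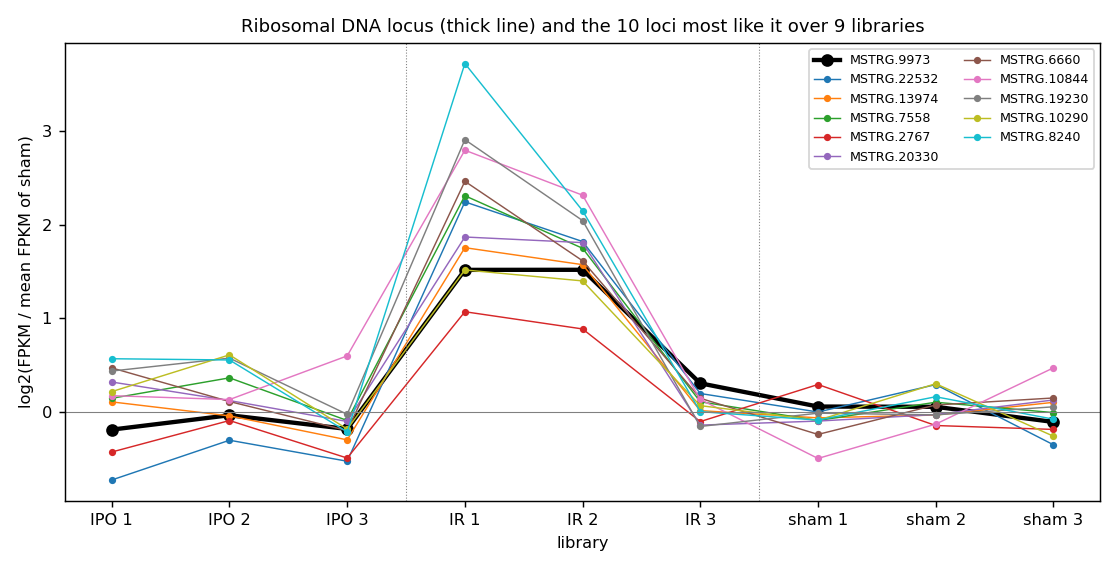
Log2 of FPKM over the sham mean in each of the 9 libraries, in the order IPO, IR and sham, for the rRNA locus MSTRG.9973 and the 10 loci most like it. IR libraries 1 and 2 lie above all others for each locus, and IR library 3 lies close to the sham libraries.

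MSTRG.4157 (chr11:86811487-86816896, minus strand), an abundant locus 3740 bases upstream of the RNA helicase gene Dhx40 and in no annotated gene, behaved differently. It had 138, 334 and 229 FPKM in IPO livers, 58.6, 63.3 and 85.7 FPKM in IR livers and 176, 156 and 126 FPKM in sham livers. IR libraries were all lowest, with log2 differences of -1.14 ± 0.30 (SE, adjusted p = 0.0388) between IR and sham and 1.68 ± 0.30 (SE, adjusted p = 0.00626) between IPO and IR. The first call ended without IR library 1 (adjusted p = 0.107), IR library 2 (0.0993), IPO library 3 (0.0629), sham library 1 (0.133) or sham library 2 (0.116). Dhx40 was not called (adjusted p = 0.913 and 0.444).

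Differences of pseudogene loci correlated with those of the genes they copy, but few were called. Of 123 loci on pseudogene exons, 117 shared at least 1 word of 31 bases with a listed gene and 91 shared at least 50% of their words, so their values are uncertain where reads could be split between copies. Over 89 pairs with both members tested, the log2 differences of pseudogene and gene had a Pearson correlation of 0.77 between IPO and IR and 0.71 between IR and sham, with the same sign in 76 and 54. Some pairs share the same gene, such as Rpl17, and all share libraries, so the pairs are not independent and the correlations describe these libraries. Of the 89 pseudogene loci, 6 were called between IPO and IR, with the gene called in the same direction for 4, and 3 were called between IR and sham, with the gene called in the same direction for 2. Over all 5779 loci, 11.9% were higher and 8.03% lower in IPO than in IR, and 3.31% and 9.33% in IR than in sham. MSTRG.17059 (Gm15459, sequence above) had 75.2, 72 and 72.5 FPKM in IPO livers, 136, 104 and 112 FPKM in IR livers and 72.9, 101 and 83 FPKM in sham livers. IPO libraries were all below IR libraries, with a log2 difference of -0.67 ± 0.15 (SE, adjusted p = 0.0162), beside -0.47 (adjusted p = 0.0288) for Hspa8, a constitutive heat shock protein gene. The call of the pseudogene ended without IPO library 2 (adjusted p = 0.0559) or 3 (0.0540). MSTRG.7014 on Gm1821, a pseudogene of the polyubiquitin gene Ubb, had 107, 44.6 and 50.4 FPKM in IR livers, against 24.4, 34.3 and 27.3 FPKM in sham livers, a log2 difference of 1.12 ± 0.30 (SE, adjusted p = 0.0404), beside 0.62 (adjusted p = 0.0159) for Ubb. That call ended without any IPO library (adjusted p = 0.0600, 0.0615 and 0.0657 for IPO libraries 1 to 3) or any sham library (0.138, 0.0742 and 0.0697 for sham libraries 1 to 3). MSTRG.25186 (Scp2-ps2, sequence above) had 61.7, 66.9 and 65.7 FPKM in IPO livers, 16.1, 64.4 and 57.5 FPKM in IR livers and 56.2, 78.7 and 59.2 FPKM in sham livers and was not called.

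**Figure D5:**
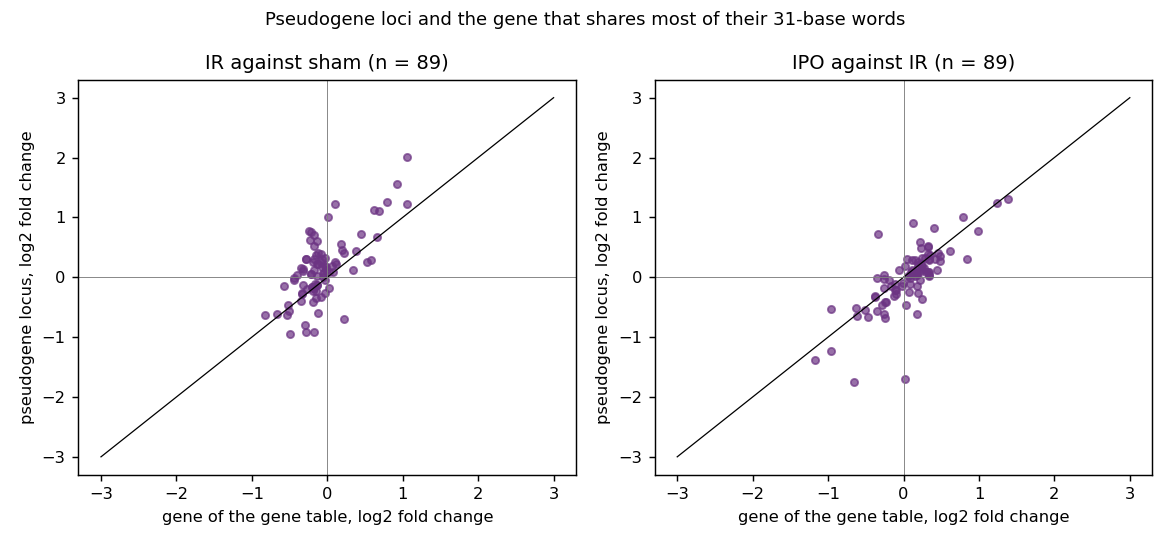
Log2 difference between groups of each intergenic locus on a pseudogene exon (vertical axis) against that of the listed gene that shares most 31-base words with it (horizontal axis), for IR against sham and IPO against IR (n = 89 pairs each). Most points in the panel of IPO against IR have the same sign for both members (76 of 89), against 54 of 89 for IR against sham.

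The mean of 1 FPKM cut through a continuous range of levels. Just inside it were MSTRG.20873, MSTRG.17439 and MSTRG.20799, with means of 1.00151, 1.00158 and 1.00302 FPKM. Just outside were MSTRG.7514, MSTRG.17682 and MSTRG.17797, with means of 0.999296, 0.999193 and 0.998709 FPKM. Of genes in the lists of immediate early, acute phase and clock genes, 1, 2 and 0 were nearest to an intergenic locus. These were Atf3, given above, and the acute phase genes Itih4 and Cp, whose loci were not called (adjusted p between IR and sham 0.124 for MSTRG.6887 near Itih4 and 0.991 for MSTRG.14017 near Cp).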

How the data were processed

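RNA-seq libraries of mouse liver (3 IPO, 3 IR and 3 sham; Trizol RNA, KAPA stranded kit, Illumina HiSeq, per the labels) were analysed from values the authors deposited in FPKM, in a table of genes and a table of unnamed loci. The build is mm10 per the submitters' processing notes; the aligner, assembler and counter were not given in the sources used here. Per the file headers the locus table gives a length, which equals the span for all 10199 loci. Both tables were used as deposited; an empty line among the genes was dropped, and every value column matched a library. The authors' lists of differing genes were not used.

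Values were taken as log2(FPKM + 0.5), and 5779 loci with a mean of at least 1 FPKM entered 1 limma fit of the 3 group means with a variance trend (limma 3.58.1, R 4.3.3, with version 1.17.8 of the data.table package; 6 residual degrees of freedom, prior 3.20 for loci and 3.56 for genes). Tests were two-sided with Benjamini-Hochberg adjustment over all loci, called under 0.05. Genes were fitted alike. The difference between a locus and its nearest gene was fitted over 5609 pairs, with the variance trend taken over the level of the locus. Loci were set against GENCODE M21 and RefSeq on GRCm38 in Python 3.11.15 with pandas 2.3.3 and numpy 2.4.6, and figures drawn with matplotlib 3.10.9. Of the gene identifiers, 11212 of 11229 were in GENCODE M21 when version numbers were dropped. The 31-base words of transcripts measured identity between copies. The procedure was tested on simulated data.

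FPKM hold no read numbers, so depth is known only relative to the deepest library, and no test on counts was run. Replicate numbers recur in all groups. Over the 9 pairs of libraries with the same number, residual correlations ran from -0.162 to 0.0611 with 0 over 0.1, so the samples were not treated as paired.

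The named loci are, in each comparison, up to 10 called rises and 10 called falls of largest size without overlap between groups, the 10 most abundant loci and those at the limit of 1 FPKM. Any other locus lay outside this rule and is to be read as picked with its values in view, also where that is not said. The members and lists were chosen with earlier results of these data known. Sequence at unannotated loci is not used here, since only transcripts, promoters and microRNAs were at hand, so polyadenylation signals were not searched. Alternatives were other pseudocounts, filters, scaling and membership rules, a replicate block, the description number as a term, 1 fit over loci and genes, and leaving out each library in turn.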

Additional observations from a re-analysis of the deposited data

How the results depend on the processing

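Loci called between IR and sham were 18 higher and 141 lower, between IPO and IR 173 and 40, and between IPO and sham 2 and 0; 26, 50 and 0 differed from their nearest gene. Counts are given in that order of comparison. Without a filter, with a pseudocount of 1, with median-of-ratios scaling, and with loci and genes in 1 fit, every count stayed within 1.5 times. A pseudocount of 0.1 left 0 loci higher in IPO than in sham. A mean of at least 5 FPKM, which leaves 207 loci, gave 6 higher and 38 lower, 51 higher and 8 lower, and 0 higher in IPO than in sham, with 2 and 7 pairs. Restricting the loci to at least 5000 bases from genes left 23 lower in IPO than in IR and 1 higher in IPO than in sham. Outside GENCODE M21 there were 9 higher and 92 lower, 112 higher and 17 lower, and 1 higher. Outside GENCODE M21 and RefSeq, an alternative chosen after seeing the data, there were 8 and 69, 89 and 11, and 1. The trend over the mean difference (26 and 47 pairs) and leaving out pseudogene exons were also added after seeing the data and moved no count by over 1.5 times. These restrictions count fewer loci by construction.

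The replicate block gave 12 and 101 calls between IR and sham and 148 and 31 between IPO and IR, with 4 and 4 pairs, 0 loci higher and 1 lower in IPO than in sham. Its residual correlations showed no pairing, and 1 of 9 libraries correlated best with its own number. The description number as a term gave 7 higher, 53 lower and 12 pairs between IR and sham; the cause was not tested. It could not be separated from the group in the comparisons with IPO.

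Leaving out each library in turn gave 7 to 28 higher and 63 to 168 lower loci and 3 to 71 pairs between IR and sham. Between IPO and IR it gave 103 to 187 higher and 19 to 43 lower loci and 14 to 69 pairs, and between IPO and sham 0 to 1 higher and 0 to 2 lower loci and 0 to 3 pairs. Of 86 calls among the loci listed for these checks, 58 held in all 9 of these fits. That list leaves out some loci named above and holds some that are not named. No difference of a listed locus that was called in the main fit or under an alternative reversed its direction between them. Changes of direction in differences called in neither were not counted. Relative depths ran from 0.586 to 1, and calls were not tested against depth.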
